A study of Mus musculus with 4 samples.

Results

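miR-26a-5p and miR-26b-5p are the mature 5p strands of the miR-26 family. They were taken by name from the small RNA profiles of mouse aortas, where they are 2 of 1152 listed entries, and both had reads in every library. The other strands of their hairpins, miR-26a-1-3p, miR-26a-2-3p and miR-26b-3p, are described beside them.

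The profiles come from wild type C57BL/6 mice, a common inbred laboratory strain, at 12-week age, and 2 libraries are labelled CKD and 2 Sham. CKD stands for chronic kidney disease, which the series uses to induce vascular calcification. In the labelled model, parts of the left kidney and then, 1 week later, the right kidney were removed, and a diet with 2% phosphate and water with 0.45% NaCl followed for 4 weeks. The labels give this treatment in the same words for both groups, so what was done to the Sham mice is not stated in what was read here. A library holds a pool of 4 samples, so p-values reflect no more than the variation among pools, which may be technical.

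A microRNA (miRNA) is a short RNA that guides Argonaute proteins to messenger RNAs, mainly by pairing of its seed, the bases 2 to 8 from its 5′ end. The miR-26 genes lie inside genes of the C-terminal domain small phosphatases, and miR-26a is broadly expressed and among the abundant miRNAs of smooth muscle. Known targets of miR-26a include Ezh2, a histone methyltransferase, and Smad1, a mediator of bone morphogenetic protein signals. In cultured smooth muscle cells miR-26a has been described as a regulator of differentiation and of osteogenic change.

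The mature sequences are shown because the seed, in capitals, is the same in both members while the rest tells their reads apart.
miR-26a-5p: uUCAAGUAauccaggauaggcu
miR-26b-5p: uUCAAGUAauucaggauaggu
Both sequences are RefSeq entries of the build GRCm38.p6, 22 and 21 bases long. Counted from 1 at the 5′ end, with the base of miR-26a-5p first, they differ by C11U and C21U, and a read that stops before position 21 differs at position 11 alone. No other mature miRNA of the RefSeq table held this seed, so among the 900 listed names that matched a RefSeq sequence the family had these 2 members. The sources used here do not say whether the authors' counting allowed mismatches.

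The hairpins are shown because miR-26a-5p is encoded in more than one place, and only the 3p arm tells which hairpin a read came from. Both mature arms are in capitals.
Mir26a-1: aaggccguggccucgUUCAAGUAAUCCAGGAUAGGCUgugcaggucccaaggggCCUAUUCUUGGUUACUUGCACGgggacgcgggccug
Mir26a-2: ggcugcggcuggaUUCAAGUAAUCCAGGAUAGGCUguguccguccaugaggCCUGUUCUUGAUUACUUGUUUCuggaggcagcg
Mir26b: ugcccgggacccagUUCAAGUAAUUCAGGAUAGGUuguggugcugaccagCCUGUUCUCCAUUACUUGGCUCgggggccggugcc
In GRCm38, Mir26a-1 lies at chr9:119031796-119031885 on the plus strand, in an intron of 3 of the 4 annotated transcripts of Ctdspl and in no exon of that gene. Mir26a-2 lies at chr10:126995530-126995613 on the plus strand of Ctdsp2, in an intron of 1 of its 4 transcripts and overlapping an exon of 2 others. Mir26b lies at chr1:74394310-74394394 on the plus strand, in an intron of 2 of the 3 transcripts of Ctdsp1 and in no exon. The 3p arms of Mir26a-2 and Mir26b share the seed CUGUUCU, and that of Mir26a-1 has CUAUUCU.

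The reads recovered from the deposited counts per 1000000 (CPM) totalled 17532748 and 16658810 in the CKD libraries and 17520690 and 16878392 in the Sham libraries, so 3 reads correspond to 0.171 to 0.18 CPM. The largest entry, miR-143-3p, made in smooth muscle from the same cluster as miR-145a-5p, held 41.1% and 40.8% of the CKD reads and 79.8% and 72.5% of the Sham reads. CPM are shares of a fixed total, so they rise for other entries where this entry is smaller, and for 437 of 479 tested entries (91.2%) both CKD values lay above both Sham values. The smooth muscle markers miR-143-3p and miR-145a-5p together held 479329 and 483550 CPM in CKD and 831603 and 772424 CPM in Sham. Most of this sum was miR-143-3p. miR-145a-5p alone went the other way on this scale, with 67970 and 75726 CPM in CKD and 33419 and 47242 CPM in Sham. On the TMM scale, explained below, limma placed both markers lower in CKD. The log2 differences there were -0.73 for miR-145a-5p (SE 0.13) and -2.48 for miR-143-3p (SE 0.24). The erythroid markers (4 listed) summed to 1454 and 8020 CPM in CKD and 289.9 and 1022 CPM in Sham, the endothelial ones (2) to 9989 and 9767 CPM in CKD and 2899 and 3411 CPM in Sham, and the leukocyte ones (5) to 424 and 474 CPM in CKD and 82.2 and 229 CPM in Sham. The striated muscle markers (7) summed to 1287 and 1026 CPM in CKD and 533 and 651 CPM in Sham, those of epithelium and kidney tubule (7) to 636 and 473 CPM in CKD and 129 and 164 CPM in Sham, and the hepatocyte miRNA miR-122-5p had 161 and 56.0 CPM in CKD and 1.43 and 25.5 CPM in Sham. The erythroid markers miR-486a-5p and miR-486b-5p gave identical results in each fit, so the erythroid sum seems to count the same reads 2 times. On the TMM scale the log2 ratio of mean sums, CKD over Sham, was -2.36 for smooth muscle and -0.62 for striated muscle. It was 0.058 for endothelium, 0.053 for leukocytes and 0.33 for epithelium and kidney tubule. For the erythroid sum it was 1.44 and for miR-122-5p 1.63. Each marker had reads in at least 1 library, and the part of the markers in the miR-26 values was not tested. In such bulk tissue, fewer cells of a type and less RNA per cell cannot be told apart.

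miR-26a-5p took a share of the aortic miRNA reads in CKD that was 2.78 times that in Sham. It held 4.10% and 4.21% of reads in the CKD libraries and 1.26% and 1.73% in the Sham libraries. The Wilson 95% intervals of these shares, which cover counting error only because reads without molecular identifiers are not independent molecules, ran from 4.09% to 4.11% and from 4.20% to 4.22% in CKD, and from 1.25% to 1.26% and from 1.73% to 1.74% in Sham. As CPM this was 41034 and 42140.3 in CKD against 12588 and 17341 in Sham. Both CKD libraries lay above both Sham libraries, and the CKD libraries were nearer to each other than the Sham libraries were. The mean share was 4.16% ± 0.0782 in CKD and 1.50% ± 0.336 in Sham (SD, n = 2 each), a difference of 2.66 percentage points (exact two-sided permutation p = 0.333, the smallest that 2 against 2 libraries can give).

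miR-26b-5p was rarer and showed the same order of libraries between groups. It had 4694 and 5751 CPM in the CKD libraries, against 1499 and 2083 CPM in the Sham libraries. Its share was 0.469% and 0.575% of reads in CKD and 0.150% and 0.208% in Sham, with a mean of 0.522% ± 0.0748 in CKD and 0.179% ± 0.0413 in Sham (SD, n = 2 each), 2.92 times as large in CKD (exact two-sided permutation p = 0.333, again the smallest possible). Together the pair held 4.68% ± 0.153 of reads in CKD and 1.68% ± 0.377 in Sham (SD, n = 2 each).

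**Figure D1:**
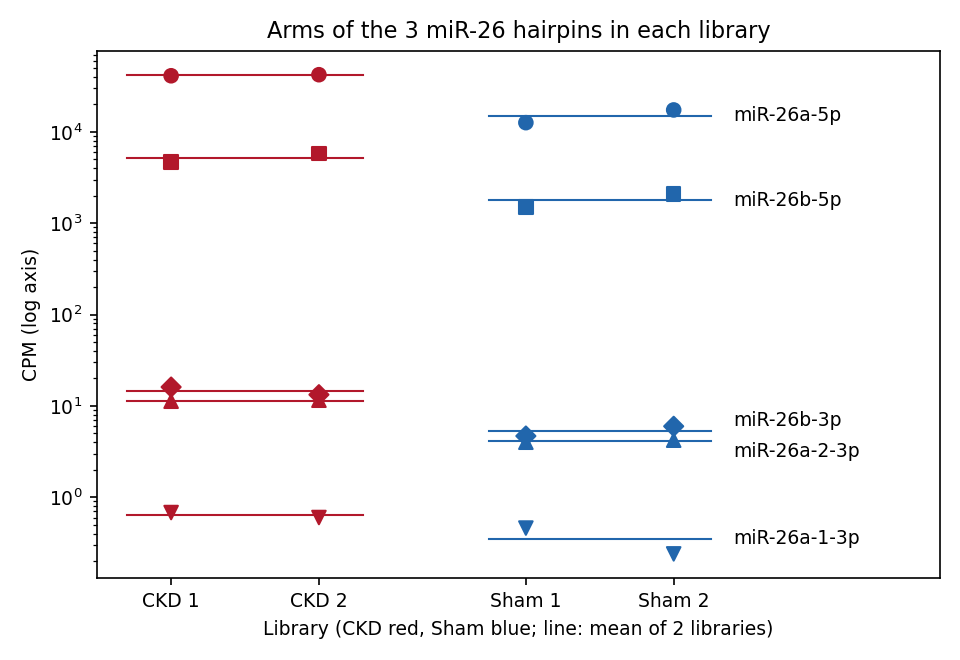
CPM on a log axis of the 5 arms of the miR-26 hairpins in each library, CKD in red and Sham in blue, with a line at the mean of the 2 libraries of a group. The 5p arms stand far above the 3p arms, and for each arm both CKD points lie above both Sham points. The same held for 91.2% of the 479 tested entries on this scale. miR-26a-1-3p, with 12 reads or fewer in each library, was not among those tested.

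On the deposited scale both members rose, by an amount close to that of most aortic miRNAs. limma on log2(CPM + 1) over the 479 entries that reached a mean CPM of 1 gave a log2 difference of 1.49 for miR-26a-5p (SE 0.24, limma adjusted p = 0.00098) and 1.56 for miR-26b-5p (SE 0.35, limma adjusted p = 0.0025), higher in 2 of 2 CKD libraries for each. In the same fit 402 entries (83.9% of those tested) passed the threshold of 0.05, of which 397 (82.9%) were higher and 5 (1.04%) lower in CKD, so a call of both members is near the background. The median log2 difference was 1.34 over all tested entries and 1.56 over the 116 with a mean CPM of at least 100. The calls also rest on few libraries. Without CKD 1 both were lost, at log2 differences of 1.51 for miR-26a-5p and 1.70 for miR-26b-5p. Without CKD 2 that of miR-26b-5p was lost, at 1.41. Each of these fits leaves 1 CKD library, so a lost call need not come from a smaller difference.

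Relative to the shift shared by most entries, neither member passed the threshold in either direction. TMM scaling (trimmed mean of M values), which sets the bulk of entries level between libraries, gave miR-26a-5p 22683 and 25386 scaled CPM in CKD against 26296 and 24923 in Sham, and miR-26b-5p 2595 and 3465 scaled CPM in CKD against 3131 and 2994 in Sham. The groups overlapped for both, where 59.5% of tested entries had groups that did not overlap in one direction or the other. The log2 difference of miR-26a-5p was -0.09 (SE 0.11, 95% interval -0.38 to 0.20, limma adjusted p = 0.61) and that of miR-26b-5p -0.03 (SE 0.17, 95% interval -0.49 to 0.43, limma adjusted p = 0.92). On this scale 37 of 479 entries (7.72%) passed, 9 higher (1.88%) and 28 lower (5.85%) in CKD, and the median of all was -0.00083. The intervals leave room for changes of either sign, and the estimate for miR-26b-5p was 0.17 without CKD 1 and -0.23 without CKD 2.

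**Figure D2:**
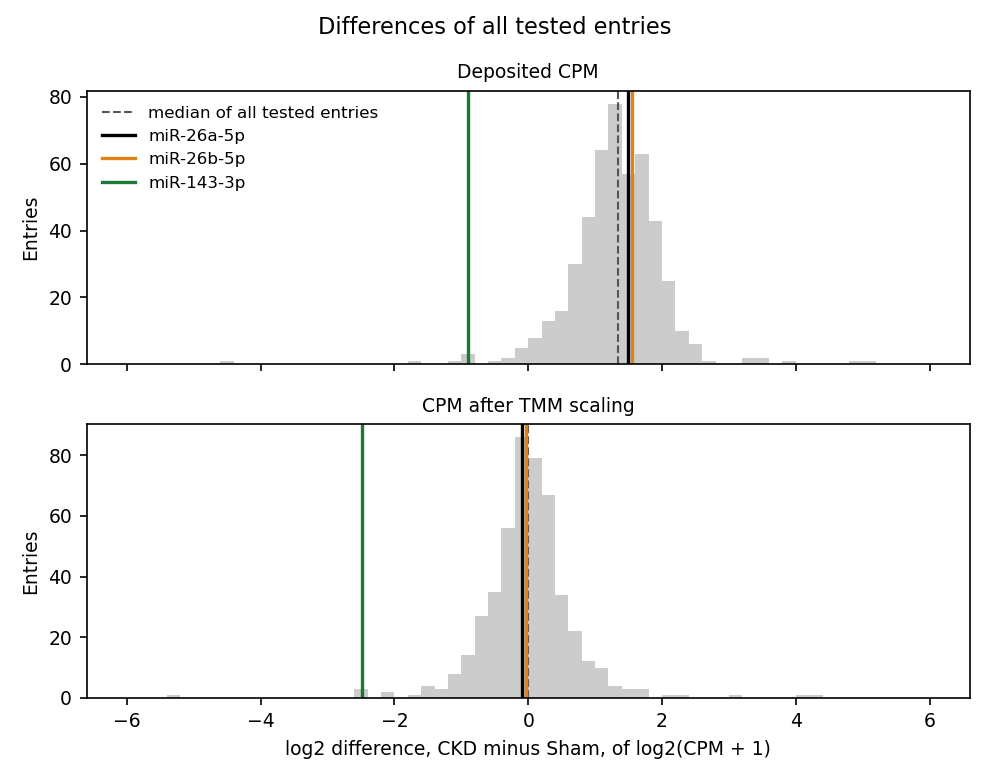
Histograms of the log2 difference, CKD minus Sham, of the 479 tested entries on the deposited scale (top) and after TMM scaling (bottom), with lines at the median of all entries, the pair and miR-143-3p. Both members stand at 1.49 and 1.56 beside the median of 1.34 in the top panel and at -0.09 and -0.03 in the bottom one, while miR-143-3p stands at -0.89 and -2.48.

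With miR-143-3p taken out of the denominator, the shares of the pair in CKD and Sham came close. miR-26a-5p held 6.97% and 7.12% of the other reads in the CKD libraries and 6.24% and 6.31% in the Sham libraries, 7.04% ± 0.103 and 6.27% ± 0.0515 on average (SD, n = 2 each). miR-26b-5p held 0.797% and 0.971% of them in CKD and 0.743% and 0.758% in Sham. The groups did not overlap for either member, at 1.12 and 1.18 times the Sham mean (exact two-sided permutation p = 0.333 for each), but 45% of the 478 tested entries besides miR-143-3p were likewise higher in both CKD libraries on this measure.

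By rank, miR-26a-5p was among the most abundant miRNAs of the aorta in both groups and moved up by 1 place. It ranked 3 in both CKD libraries and 4 in both Sham libraries. The entry above it in Sham and below it in CKD was miR-140-3p, a miRNA known from cartilage, which had 36357 and 30495 CPM in CKD and 25119 and 30756 CPM in Sham. miR-26a-5p was above miR-140-3p in 2 of 2 CKD libraries and in 0 of 2 Sham libraries. There were 0.886 and 0.724 reads of miR-140-3p per read of miR-26a-5p in CKD, against 2.00 and 1.77 in Sham, and relative to the shared shift miR-140-3p fell (log2 difference -1.33, SE 0.13, limma adjusted p = 0.012), a call lost when any single library was left out (limma adjusted p from 0.051 to 0.17). On the deposited scale miR-140-3p was at 0.26 (limma adjusted p = 0.29).

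The other neighbours of miR-26a-5p kept their side in all 4 libraries. miR-145a-5p, encoded with miR-143-3p, was higher, with 1.66 and 1.80 reads per read of miR-26a-5p in CKD and 2.65 and 2.72 in Sham. miR-125b-5p was lower, by a margin that was narrow in every library, with 1.27 and 1.09 reads of miR-26a-5p per read of it in CKD and 1.27 and 1.23 in Sham. miR-27b-3p was lower too, with 1.53 and 1.81 reads of miR-26a-5p per read of it in CKD and 1.20 and 1.28 in Sham. The CKD and Sham ratios overlapped for miR-125b-5p (exact two-sided permutation p = 1). They did not for miR-140-3p, miR-145a-5p and miR-27b-3p (exact two-sided permutation p = 0.333 for each, the smallest possible). Such separation is easily reached with so few libraries, and its share over all entries was not computed for these ratios. For single entries on the TMM scale, a different measure, the groups did not overlap for 59.5% of those tested.

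**Figure D3:**
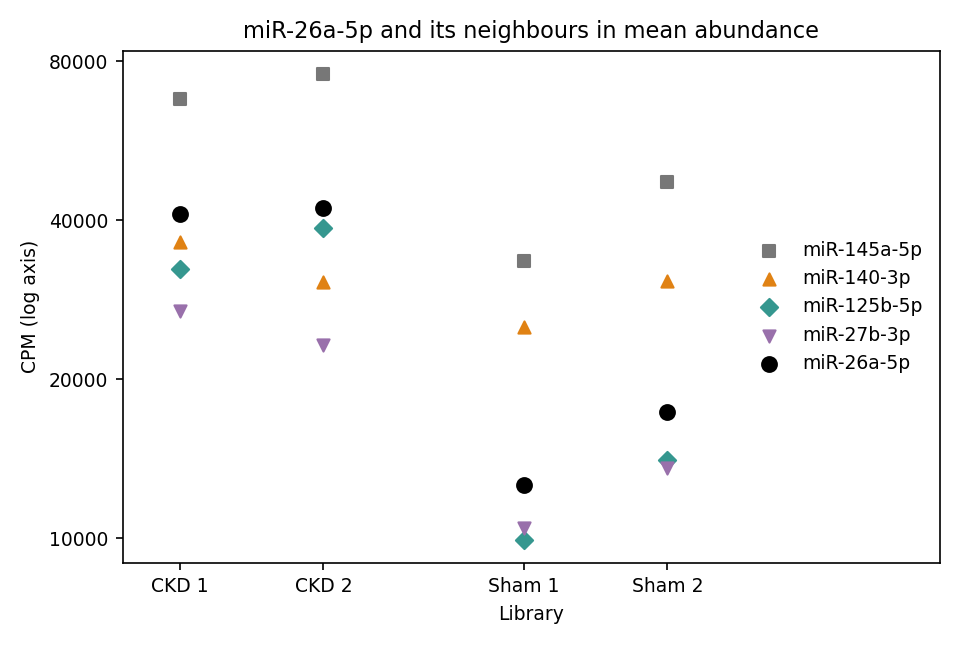
CPM on a log axis, in each library, of miR-26a-5p (black) and the 4 entries next to it in mean abundance. miR-26a-5p is above miR-140-3p in both CKD libraries and below it in both Sham libraries, and miR-145a-5p is above it and miR-125b-5p and miR-27b-3p below it throughout.

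miR-26b-5p ranked 35 and 31 in the CKD libraries and 35 in both Sham libraries, so its place differed within CKD by more than between groups. Its neighbours by mean CPM could not be set in a fixed order. miR-99b-5p (6251 and 5732 CPM in CKD, 1697 and 2204 CPM in Sham) and miR-100-5p (4821 and 5596 CPM in CKD, 1737 and 2483 CPM in Sham), which share a seed with each other, were above it in all libraries but CKD 2. miR-152-3p was below it in 3 of 4 libraries and miR-148a-3p in both CKD libraries only.

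The ratio of the pair, which does not depend on the scaling of a library, did not separate the groups. There were 8.74 and 7.33 reads of miR-26a-5p per read of miR-26b-5p in the CKD libraries, against 8.40 and 8.32 in the Sham libraries. The CKD libraries lay on both sides of the Sham libraries. Within the pair, miR-26a-5p made up 89.7% and 88.0% of reads in CKD and 89.4% and 89.3% in Sham. Their Wilson 95% intervals, again of counting error only, were 89.7% to 89.8% and 87.9% to 88.1% in CKD, and 89.2% to 89.5% and 89.2% to 89.4% in Sham. The log2 ratio averaged 3.00 ± 0.180 in CKD and 3.06 ± 0.00900 in Sham (SD, n = 2 each), a difference of -0.06 (exact two-sided permutation p = 1, where 0.333 is the smallest possible). limma on the log2 values of all entries relative to miR-26b-5p gave miR-26a-5p a difference of -0.06 with a 95% interval of -0.72 to 0.60 (limma adjusted p = 0.91), in a fit that called 15 of 478 entries (3.14%). The difference was 0.065 without CKD 2, the library with the lowest ratio and also with the highest sum of erythroid markers, whose part in the ratio was not tested.

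**Figure D4:**
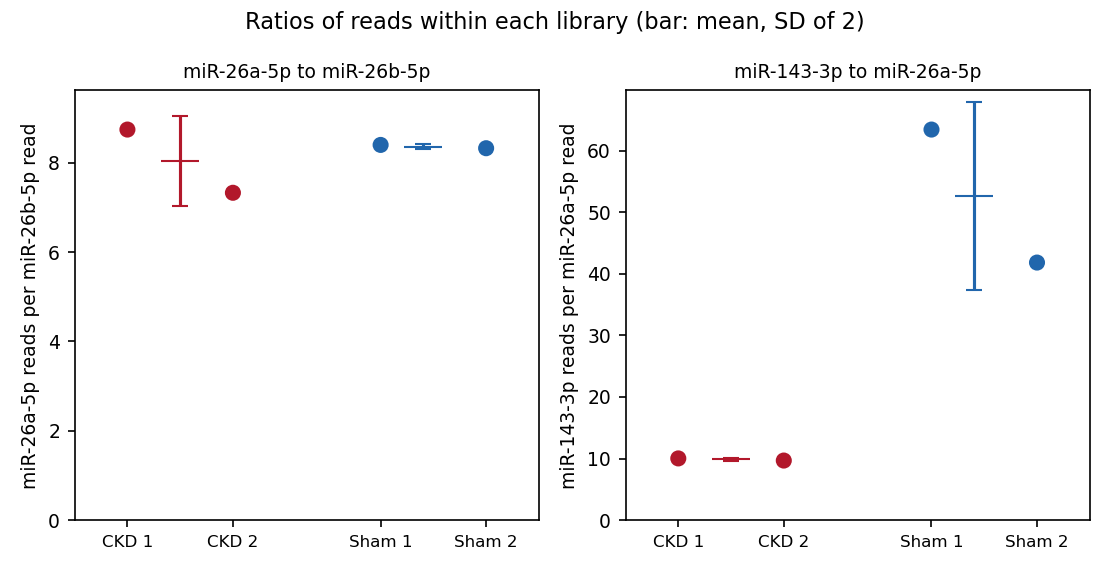
Reads of miR-26a-5p per read of miR-26b-5p (left) and of miR-143-3p per read of miR-26a-5p (right) in each library, with the mean and SD of the 2 libraries of a group. On the left the CKD points at 8.74 and 7.33 enclose the Sham points, and on the right the CKD points at 10.0 and 9.68 lie far below the Sham points at 63.4 and 41.8.

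Set against miR-143-3p, the pair stood higher in CKD, as did nearly all tested entries. Of the 479 entries, 1.04% had a lower log2 difference than miR-143-3p on the deposited scale and 0.63% on the TMM scale. There were 10.0 and 9.68 reads of miR-143-3p per read of miR-26a-5p in the CKD libraries, against 63.4 and 41.8 in the Sham libraries. For miR-26b-5p the same ratio was 87.6 and 70.9 in CKD, against 533 and 348 in Sham. Groups did not overlap for either ratio (exact two-sided permutation p = 0.333 for each, the smallest possible). On the log2 scale the difference, CKD minus Sham, was -2.39 for the ratio to miR-26a-5p and -2.45 for that to miR-26b-5p. A ratio shows that its parts changed unequally and not which of them changed.

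Pairs of other miRNAs that share a seed were set beside the miR-26 pair. In 15 seeds, at least 2 miRNAs of different sequence and different values had a mean CPM of at least 100, and the 2 most abundant of each were compared as a description with no test. In 10 of the 15 pairs the CKD and Sham ratios did not overlap, and the miR-26 pair was not among these. No share over all ratios was computed to set beside this count. For single entries on the TMM scale, a different measure, 59.5% of those tested had groups that did not overlap. The count is therefore not read as a trait of the seed pairs. Its log2 difference of -0.06 was the third smallest in size, where the median size was 0.20. The nearest to it were miR-103-3p to miR-107-3p (-0.06), miR-99a-5p to miR-99b-5p (0.02) and let-7c-5p to let-7f-5p (-0.19). The highest differences were those of miR-152-3p to miR-148a-3p (0.74), miR-29a-3p to miR-29c-3p (0.66) and miR-221-3p to miR-222-3p (0.48). The lowest belonged to miR-146a-5p to miR-146b-5p (-0.64), miR-27b-3p to miR-27a-3p (-0.62) and miR-93-5p to miR-17-5p (-0.49). The CKD libraries differed in the miR-26 ratio by more than in most pairs, with an SD of 0.180 on the log2 scale, place 3 of 15 from the highest, while the Sham SD of 0.00900 was place 14 of 15.

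**Figure D5:**
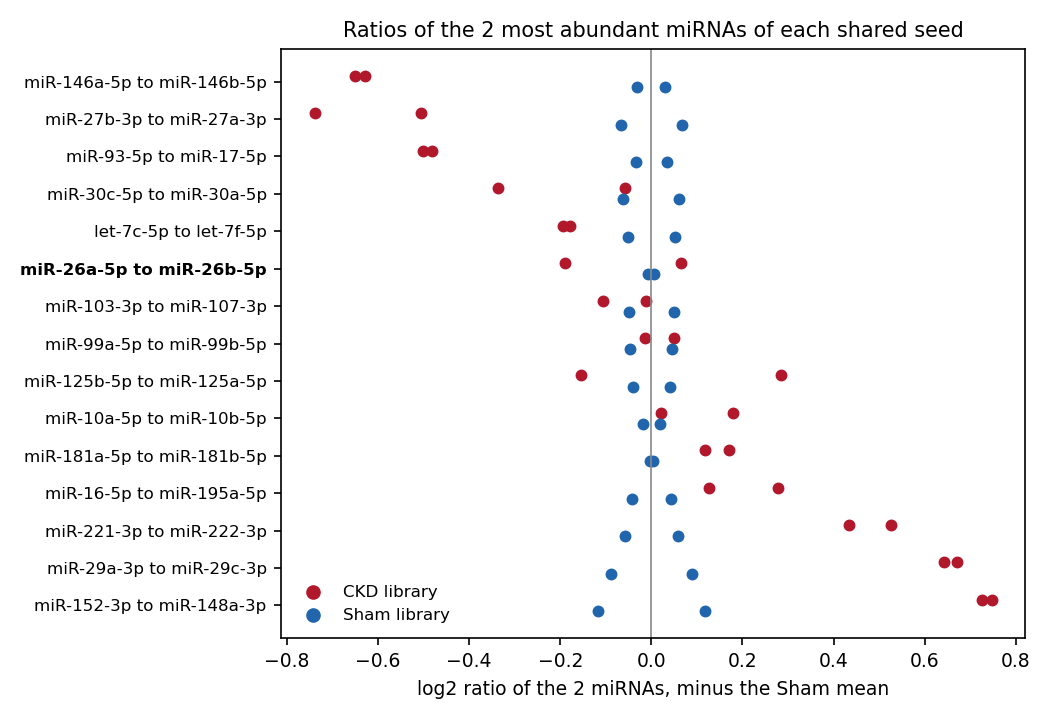
For each of 15 seeds, the log2 ratio of its 2 most abundant miRNAs in each library, minus the Sham mean of that ratio, CKD in red and Sham in blue. The miR-26 pair (bold) has its CKD points on both sides of its Sham points, whereas both CKD points of the pairs at the top and the bottom lie away from the Sham points.

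The 3p arms, which are usually degraded after the hairpin is cut, were far rarer than the 5p arms and moved in the same direction on the deposited scale. miR-26b-3p had 282 and 221 reads in the CKD libraries against 82 and 101 in the Sham libraries, or 16.1 and 13.3 CPM in CKD against 4.68 and 5.98 CPM in Sham. miR-26a-2-3p had 197 and 192 reads in CKD against 70 and 71 in Sham, or 11.2 and 11.5 CPM in CKD against 4.00 and 4.21 CPM in Sham. The log2 difference on that scale was 1.31 for miR-26b-3p (SE 0.30, limma adjusted p = 0.0027) and 1.28 for miR-26a-2-3p (SE 0.28, limma adjusted p = 0.0023), beside the median of 1.34 over all entries, and each call was lost without CKD 1 (limma adjusted p = 0.11 and 0.079). The size depends on the pseudocount at such low values, at 0.69 and 0.60 with a pseudocount of 10 and 1.45 for each with 0.1, the calls being kept. Relative to the shared shift they lay at -0.11 (95% interval -0.49 to 0.27) and -0.10 (95% interval -0.62 to 0.41). miR-26a-1-3p had 12 and 10 reads in CKD and 8 and 4 in Sham, under the minimum for the test.

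The excess of 5p over 3p reads was larger for miR-26a than for miR-26b in every library and did not separate CKD from Sham. There were 3442 and 3475 reads of miR-26a-5p per read of its 3p arms in the CKD libraries, against 2828 and 3903 in the Sham libraries. For miR-26b the ratio was 292 and 434 in CKD, against 320 and 348 in Sham. The groups overlapped for both ratios (exact two-sided permutation p = 1 for each). miR-26b-3p was above miR-26a-2-3p in 4 of 4 libraries, by 1.43 and 1.15 times in CKD and 1.17 and 1.42 times in Sham, although miR-26a-5p was the more abundant 5p arm throughout. Adaptor ligation captures some small RNA sequences better than others, so ratios between different sequences hold for these libraries and not for molecules.

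Of the 3p reads of miR-26a, most came from Mir26a-2 in both groups. miR-26a-1-3p made up 5.74% (12 of 209) and 4.95% (10 of 202) of them in the CKD libraries, and 10.3% (8 of 78) and 5.33% (4 of 75) in the Sham libraries. The Wilson 95% intervals were 3.31% to 9.77% and 2.71% to 8.87% in CKD, and 5.29% to 19.0% and 2.09% to 12.9% in Sham. A difference between the groups was not detectable at this depth. The share of 3p reads is not the share of miR-26a-5p that each hairpin gives, which these files cannot tell because both encode the same mature sequence.

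The profiles over the 4 libraries most like that of miR-26a-5p were found among the 115 other entries averaging 100 CPM or more, by the root mean square distance of log2(CPM + 1) centred on each entry's mean. This is a description over 4 libraries that share a large shift, so most abundant entries are near each other, and the median distance was 0.20 from miR-26a-5p and 0.24 from miR-26b-5p. The nearest to miR-26a-5p were miR-1839-5p (0.040), miR-195a-5p (0.062), miR-28a-5p (0.067), let-7d-5p (0.068) and miR-152-3p (0.077), and miR-26b-5p was in place 13 (0.095). The nearest to miR-26b-5p was miR-125b-5p (0.020), with 32309 and 38713 CPM in CKD and 9933 and 14061 CPM in Sham. Like miR-26b-5p it was higher in CKD 2 than in CKD 1. let-7g-5p (0.089), miR-1839-5p (0.091), miR-26a-5p (0.095) and miR-146a-5p (0.098) followed.

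Other miRNAs have been described, like miR-26a, as opposing osteogenic change of smooth muscle. Of 12 such miRNAs listed, 11 were tested, and miR-211-5p had too few reads. On the deposited scale 10 of the 11 passed the threshold as higher in CKD, as did 82.9% of all tested entries, so this count is near the background. The median was 1.63, beside 1.34 for all tested entries and 1.56 for the 116 with a mean CPM of at least 100. The highest were miR-34c-5p (2.59), miR-29b-3p (2.52), miR-29a-3p (2.29) and miR-204-5p (2.18), a repressor of the osteogenic factor Runx2. miR-125b-5p, the most abundant of them, rose by 1.58, close to the miR-26 pair. Relative to the shared shift the median of the 11 was 0.14. There 1 of the 11 passed the threshold as higher, miR-29b-3p (0.95, SE 0.14, limma adjusted p = 0.038), as did 1.88% of all entries. That call rests on few libraries, since limma called 0 entries without CKD 1 and 0 without CKD 2, where 92 and 109 had an unadjusted p under 0.05. The 11 lay between -0.64 (miR-133a-3p) and 1.04 (miR-34c-5p) there, and the other 10 did not pass.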

How the data were processed

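The deposited values add up to nearly 1000000 per library and carry 2 decimals, which makes them CPM as the authors computed them, although the labels state no unit. Per the submitters' processing notes Bowtie and the build GRCm38 were used; the sources used here do not give the counting or the annotation. In 3 files the deposited column stacks the names above the values (unit other), and names were paired by position. In all 4 libraries 100% of non-zero values were whole reads within 0.005 CPM. The labels name no batch. The libraries were 2 CKD and 2 Sham, with 2 residual degrees of freedom. The plan foresaw limma (3.58.1, mean-variance trend) on log2(CPM + 1) for entries that reached a mean CPM of 1, with the group as only term and Benjamini-Hochberg adjustment, on the deposited scale and after TMM scaling. TMM, edgeR (4.0.16) and DESeq2 (1.42.0) used the recovered reads. The fold on the log2(CPM + 1) scale understates low entries. Libraries of a group differed beyond counting noise, with a chi-square per degree of freedom of 423 in CKD and 593 in Sham. The members, lists and alternatives were chosen with earlier results of these data known. Named besides the members were their rank neighbours, the nearest profiles, the extreme and nearest seed pairs, the called or most abundant listed miRNAs, and miR-143-3p. The fits were run on simulated counts in which randomly drawn entries changed in either direction while miR-143-3p and the pair did not. That simulation held no fall of miR-143-3p, so it does not test how the fits handle the shared shift. Alternatives for the 3p arms, miR-143-3p and miR-140-3p, and TMM factors over all listed entries, were added after the data were seen.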

Additional observations from a re-analysis of the deposited data

How the results depend on the processing

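With 2 pooled libraries per group, no permutation test over libraries can pass 0.05, and low 3p arms limit what depth can show. miR-26a-5p and miR-26b-5p kept their deposited calls under 6 of 8 alternatives to the processing. With library totals taken without miR-143-3p the log2 differences were 0.17 (limma adjusted p = 0.31) and 0.23 (limma adjusted p = 0.33), and without the 10 most abundant entries -0.048 and 0.015 (limma adjusted p = 0.80 and 0.97). That denominator also gave -0.062 for miR-26a-2-3p, -0.067 for miR-26b-3p and -1.28 for miR-140-3p, which was at -1.07 without miR-143-3p. Leaving out each library gave 1.26 to 1.72 for miR-26a-5p and 1.32 to 1.79 for miR-26b-5p.

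On the TMM scale no alternative called either member. miR-26a-5p ranged from -0.19 to -0.04, and from -0.17 to -0.02 without single libraries. miR-26b-5p turned to 0.019 at a mean CPM of at least 10, 0.0027 with median-of-ratios factors and 0.017 with DESeq2, and ranged from -0.23 to 0.17 without single libraries, all within its interval. miR-26a-2-3p ranged from -0.30 to 0.087 without single libraries. The log2 ratio of the pair ranged from -0.19 to 0.065 without single libraries and from -0.063 to -0.058 otherwise. The share differences without single libraries were 2.42 to 2.90 and 0.290 to 0.396 percentage points of all reads, and 0.697 to 0.842 and 0.0471 to 0.221 of the reads other than miR-143-3p. The rank difference was -1 for miR-26a-5p throughout and -4 to 0 for miR-26b-5p.

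The deposited count of 402 calls became 241 at a mean CPM of at least 10, where fewer entries were tested, 28 without miR-143-3p in the totals (14 of them higher), 28 without the 10 most abundant (9 higher), and 137 to 384 without single libraries. The TMM count of 37 became 21 without a filter, 77 with DESeq2, 31 with edgeR and 0 to 7 without single libraries. By limma it was 0 without CKD 1 and without CKD 2, where 92 and 109 entries had an unadjusted p under 0.05; no other tool was run there.

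The replicate numbers are not known to pair the libraries: with 2 pairs, deviations of same-numbered libraries correlated at 0.10 across 479 entries. With the replicate block the log2 differences of the pair did not move (1.49 and 1.56 deposited, -0.09 and -0.03 with TMM, -0.06 for the ratio), no call of the pair changed, and the TMM count became 10, without miR-143-3p and miR-140-3p (limma adjusted p = 0.063 for each). Other causes of these changes were not tested.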
